A study of Mus musculus with 12 samples.

Results

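Quercetin, a flavonol of fruit and vegetables, was fed for 24 h to mice lacking functional cytochrome P450 reductase (POR), and the liver transcriptome was set against that of POR-null mice kept on the control diet. The comparison used 6 of the series' 12 liver arrays, 3 labelled POR-null with quercetin and 3 labelled POR-null alone. The other 6 arrays, 3 on each diet, were of wild-type liver. They entered the fit only to estimate the spread between arrays and to give the wild-type response. All mice were male C57BL/6 of 6 to 8 weeks, and all were first adapted for 14 days to RM3, a soya-free powdered diet. The POR-null control group stayed on that diet, and the POR-null quercetin group received it with quercetin at 6.2 g per kg, or 7 mg per mouse. Each array carried whole-liver RNA pooled from 3 mice, so n = 3 below counts pools and differences between single mice within a pool were averaged out. The labels do not say in which cells the reductase gene was disrupted or which promoter drove any recombinase, and the reductase gene itself was not analysed here.

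POR passes electrons from NADPH to the cytochrome P450 enzymes of the endoplasmic reticulum, which oxidise drugs, sterols, bile acid precursors, fatty acids and retinoic acid. Without it these enzymes are made but cannot complete their reaction cycle. Livers lacking POR are known for a fatty appearance, low bile acid output and high levels of many P450 transcripts. Quercetin itself is cleared mainly by conjugation with glucuronate, sulfate and methyl groups, and it is often studied as a ligand of the aryl hydrocarbon receptor (AhR), an activator of the antioxidant regulator NRF2 and an inhibitor of kinases and inflammatory signalling.

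No gene passed the threshold for a difference between the diets in POR-null liver. With limma's moderated test on the deposited log2 values, 0 of 22626 probe sets (0%) had an adjusted p below 0.05, and the lowest adjusted p was 0.446. An unadjusted p below 0.05 was reached by 1581 probe sets (6.99%), where 1131 would be reached by chance alone, and 798 of them were higher and 783 lower with quercetin. All values below are therefore descriptions of 6 arrays, and higher or lower states only where the group means lay. Each of 12393 genes was represented by its brightest probe set, and the median difference over genes was -0.005 log2 units. Among them, 417 genes (3.36%) were higher and 432 genes (3.49%) lower at an unadjusted p below 0.05. All 3 quercetin arrays lay above all 3 control arrays for 847 genes (6.83%) and below them for 944 genes (7.62%), and 5990 genes (48.3%) had a difference above 0. These shares are the background for every list below. A difference of at least 0.5 log2 units was seen for 53 genes on the higher side and 33 on the lower side. The 95% interval reached, at the median probe set, 0.239 log2 units to either side of the difference.

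The arrays of each diet differed little in overall brightness but did not separate by diet in every measure. Median log2 values ran from 5.93 to 5.98 over the 6 arrays, and correlations between arrays of different diets (0.988 to 0.993) covered those within a diet (0.989 to 0.993). The first principal component (29.6% of the variance) mixed the diets. On the second (21.8%), the control pools stood at 15.8, 13.9 and -2.79 and the quercetin pools at -10.5, -4.27 and -12.2, so that all controls lay above all quercetin pools. Quercetin pools 1 and 3 and control pools 1 and 3 differed from the rest of their own groups in several gene sets described below, and the values without them are given where a result rested on them. The 12 hepatocyte markers had a median difference of -0.04 log2 units, with 4 above 0, and their mean on each array ran from -0.10 to 0.09 log2 units around the 6-array mean. Because whole liver was sampled, fewer cells of a type and less RNA per cell cannot be told apart in any value below.

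Among genes read by their brightest probe set, with a group mean above the median of all values and separate groups, the lowest p was that of Cyp26a1, the P450 that clears retinoic acid and is itself a classic retinoic acid target. Its log2 values were 7.54, 7.31 and 7.39 in the control pools and 8.78, 7.89 and 8.30 in the quercetin pools. The groups did not overlap, with quercetin pool 1 the highest. The difference was 0.91 ± 0.18 log2 units (SE, n = 3 pools a diet), a 1.88-fold higher mean, with a limma adjusted p of 0.446. Over all probe sets, 6 had a lower p, and each was either dim or not the brightest of its gene. The lowest of them belonged to Pttg1, the cell division protein securin, and was singled out after its values were seen. Its mean was 4.93 ± 0.10 (SD, n = 3) on the control diet and 5.78 ± 0.31 with quercetin, with separate groups, while the much brighter probe set of Pttg1 gave 0.30 ± 0.16 with overlap. The 250 bases before the annotated start of Cyp26a1 are shown because the gene's retinoic acid control is known to act close to its start. RefSeq (GRCm38.p6) places them on the plus strand at chr19:37697558-37697807, and capitals mark the motif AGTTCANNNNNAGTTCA, a pair of receptor half-sites spaced by any 5 bases, which here reads on the opposite strand.
Cyp26a1: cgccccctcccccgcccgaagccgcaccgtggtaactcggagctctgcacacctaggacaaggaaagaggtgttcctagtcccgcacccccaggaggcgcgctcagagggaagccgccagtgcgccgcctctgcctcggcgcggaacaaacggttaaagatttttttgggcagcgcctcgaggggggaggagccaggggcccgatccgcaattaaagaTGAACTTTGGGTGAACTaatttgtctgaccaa
The match lies 32 to 16 bases before the start, and the motif was found on either strand in 7 of 32851 such windows (0.0213%). The motif was set for Cyp26a1 and fixes every half-site letter, so the low share reflects that strictness and is not used as support. A match is a description of letters and not a measured binding site.

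Genes of retinoid biology gave a mixed picture as a list. Of 29 measured genes of retinoid metabolism and retinoic acid targets, Cyp26a1 among them, 15 lay above 0 and the median difference was 0.002 log2 units. At an unadjusted p below 0.05, 2 were higher, Cyp26a1 included, and 1 was lower. Rdh10, which makes retinaldehyde from retinol, stood 0.23 ± 0.10 log2 units higher, with values of 6.90, 6.82 and 6.66 on the control diet and 7.11, 6.84 and 7.09 with quercetin. Quercetin pool 2 lay among the controls. Dhrs3, a retinaldehyde reductase that retinoic acid is known to induce, differed by 0.21 ± 0.13 with overlapping groups. Adh1, an alcohol dehydrogenase that also oxidises retinol, differed by -0.20 ± 0.09, and its 3 quercetin values (12.57, 12.67 and 12.71) all lay below the control values (12.77, 12.81 and 12.98).

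The next 11 genes followed Cyp26a1 on the higher side when ranked by p among genes with separate groups. Tax1bp3, a small PDZ-domain protein, measured 7.36, 7.21 and 7.26 on the control diet and 7.83, 7.67 and 7.85 with quercetin, a difference of 0.51 ± 0.11. Gfra1, the receptor that binds the growth factor GDNF, measured 8.59, 8.37 and 8.42 against 9.19, 8.70 and 8.98, a difference of 0.50 ± 0.11. Its second probe set gave 0.54 ± 0.12, also with separate groups. Mrap, the accessory protein that carries the ACTH receptor to the cell surface and is also made in fat cells, measured 8.28, 7.87 and 7.47 against 9.00, 8.78 and 8.65. That difference, 0.94 ± 0.22, was the largest of the 12, but a second, dim Mrap probe set gave -0.02 ± 0.11.

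Tefm, which lets mitochondrial RNA polymerase elongate, measured 5.47, 5.71 and 5.42 against 6.21, 5.85 and 6.27, so that quercetin pool 2 came within 0.14 log2 units of the highest control. Ido2, an enzyme that opens the tryptophan ring, measured 6.01, 5.85 and 6.04 against 6.46, 6.34 and 6.38. F11r, the tight-junction protein JAM-A, measured 8.37, 8.29 and 8.14 against 8.60, 8.66 and 8.74. Their differences were 0.58 ± 0.14, 0.43 ± 0.11 and 0.40 ± 0.10 log2 units. The remaining higher genes were Bcap29, a sorting factor of the endoplasmic reticulum (0.49), Grb14, an adaptor that restrains the insulin receptor (0.41), Pdlim1, a cytoskeletal LIM protein (0.37), Pot1a, a telomere protein (0.37), and Psme3, a proteasome activator (0.35). For Pdlim1 both other probe sets gave differences below 0, -0.15 and -0.18.

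**Figure D1:**
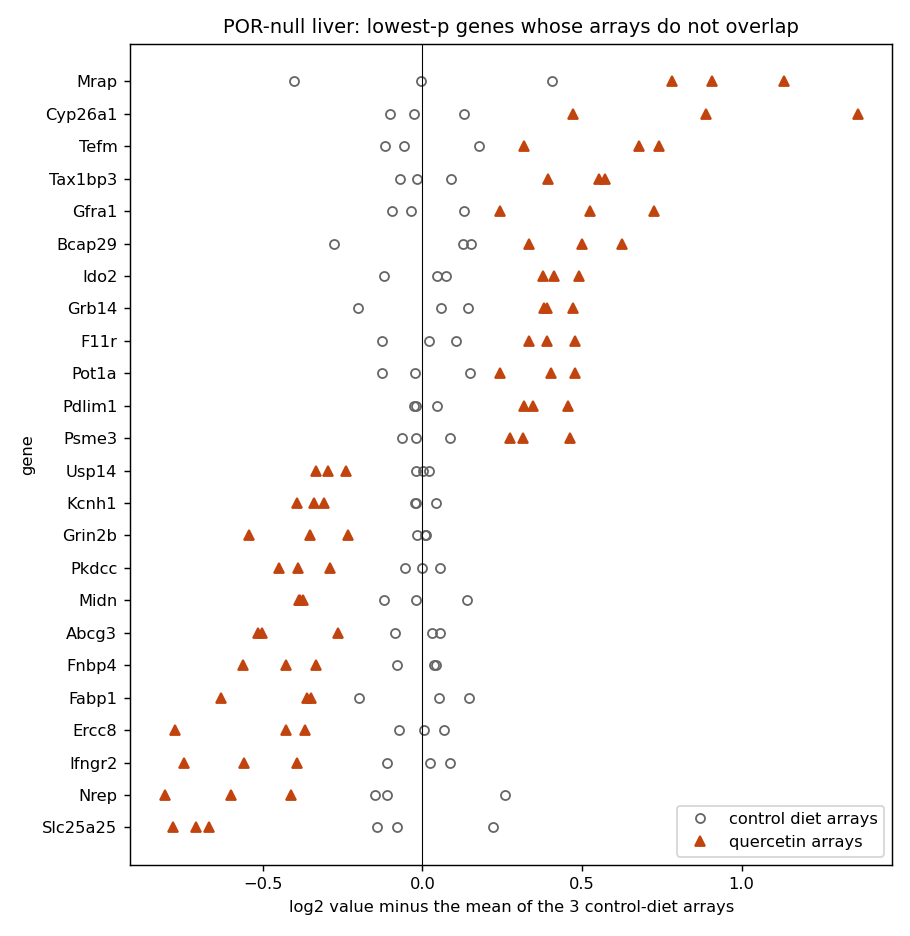
Log2 value of each array minus the mean of the 3 control-diet arrays, for the 12 higher and 12 lower genes of lowest p with separate groups (1 row per gene, open circles control diet, triangles quercetin). The genes were chosen for this separation, and Cyp26a1 and Mrap reach furthest right and Slc25a25 and Nrep furthest left.

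The 12 genes ranked lowest by p on the lower side with separate groups had mixed roles. Nrep, a growth-associated regulator first described in neurons, measured 6.37, 6.33 and 6.74 on the control diet and 5.67, 5.88 and 6.07 with quercetin, a difference of -0.61 ± 0.13. Slc25a25, the calcium-activated carrier of ATP-magnesium and phosphate in the mitochondrial inner membrane, measured 8.94, 9.30 and 9.00 against 8.37, 8.30 and 8.41, a difference of -0.72 ± 0.18. Fabp1, the main fatty acid carrier of the hepatocyte cytosol, measured 12.62, 12.96 and 12.87 against 12.18, 12.47 and 12.45, a difference of -0.45 ± 0.11. In all 3 genes the highest quercetin pool lay below the lowest control pool. The second Fabp1 probe set gave -0.66 ± 0.15, and its groups did not overlap either.

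Ercc8, the CSA protein of transcription-coupled DNA repair, measured 7.89, 8.03 and 7.97 against 7.19, 7.54 and 7.60, a difference of -0.52 ± 0.11. Ifngr2, the second chain of the interferon gamma receptor, measured 7.60, 7.54 and 7.40 against 7.12, 6.95 and 6.76, a difference of -0.57 ± 0.14. The other 7 lower genes differed by -0.29 to -0.44. They were Fnbp4, Abcg3, Midn (a nuclear protein that delivers proteins to the proteasome), Pkdcc (a secreted tyrosine kinase), Kcnh1 (a voltage-gated potassium channel), Grin2b (a glutamate receptor subunit of neurons) and Usp14 (a deubiquitinase of the proteasome). Other probe sets gave -0.06 for Abcg3, -0.09 for Grin2b, -0.11 for Ifngr2, and 0.05 and 0.16 for Usp14, so these depend on which probe set is read. The lower Fabp5, a second fatty acid binding protein, had a wider difference of -0.80 ± 0.22, with control values of 6.37, 6.86 and 6.94 and quercetin values of 6.26, 6.00 and 5.52. Its groups were separated by 0.11 log2 units only.

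Xenobiotic sensing was examined next, because quercetin is an often-cited AhR and NRF2 ligand or activator. The 10 measured AhR genes had a median difference of 0.008 log2 units, with 6 above 0 and none at an unadjusted p below 0.05, and the sign of that median turned to -0.02 with the dimmest probe sets left out. Cyp1a1, the prototype AhR target, measured 6.11, 6.33 and 6.12 on the control diet and 6.13, 6.10 and 6.20 with quercetin. Cyp1a2, the constitutive liver P450 of the same family, measured 11.62, 11.08 and 10.86 against 11.11, 11.68 and 11.14. For both genes the pools overlapped, and the 95% intervals of their differences were -0.28 to 0.18 and -0.29 to 0.53 log2 units. Tiparp, the poly-ADP-ribosyl transferase that feeds back on AhR, differed by -0.30 ± 0.14 with overlapping pools.

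Genes of NRF2 and antioxidant defence also centred on 0. Of 27 measured, 13 lay above 0, the median was -0.004, and 1 was lower and none higher at an unadjusted p below 0.05. The lower gene was Hmox1, heme oxygenase, with 7.49, 6.65 and 6.97 on the control diet and 6.31, 6.63 and 6.34 with quercetin. Its groups were separated by only 0.02 log2 units, between control pool 2 and quercetin pool 2, and the difference was -0.61 ± 0.24. Gclc, the catalytic subunit that starts glutathione synthesis, differed by -0.33 ± 0.18 with overlapping pools, and its second probe set by -0.57 ± 0.22 with separate pools. Nqo1, a quinone reductase shared by the AhR and NRF2 lists, differed by 0.16 ± 0.12, and Cat, catalase, by -0.12 ± 0.08. Both had overlapping pools.

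Targets of CAR and PXR, the nuclear receptors that induce drug-metabolising P450s, lay mostly above 0. Of 27 measured, 21 had a difference above 0 and the median was 0.17 log2 units, against 48.3% above 0 over all genes, with 2 higher and 1 lower at an unadjusted p below 0.05. Cyp3a13 measured 9.72, 9.60 and 9.81 on the control diet and 10.27, 9.86 and 10.02 with quercetin, a difference of 0.35 ± 0.10 with separate groups. Ces2a, a carboxylesterase, measured 11.28, 10.66 and 10.51 against 11.05, 11.51 and 11.10, a difference of 0.40 ± 0.17 with overlap. Cyp2b10, the usual CAR readout, measured 12.68, 12.28 and 11.24 against 12.47, 12.73 and 12.50, and Cyp3a11, the usual PXR readout, measured 13.17, 13.07 and 12.99 against 13.09, 13.06 and 13.07. Cyp2b10 was low in control pool 3 alone, which set most of its difference of 0.50 ± 0.40, while Cyp3a11 was level at -0.01 ± 0.08. Over the whole list, control pool 3 stood 0.37 log2 units below the 6-array mean and control pool 1 stood 0.25 above it, both outside the quercetin range of 0.07 to 0.13. Without control pool 3 the list median was 0.03, and without control pool 1 it was 0.35.

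The enzymes and pumps that handle quercetin itself did not share a direction. Of 19 measured genes of flavonol conjugation, 12 lay above 0, the median was 0.03 log2 units, and 4 were higher and 2 lower at an unadjusted p below 0.05. Sult1e1, the estrogen sulfotransferase, had the second largest difference on the higher side among named genes, with 6.66, 7.28 and 5.55 on the control diet and 8.34, 7.09 and 8.10 with quercetin. Quercetin pool 2 lay below control pool 2, and the difference was 1.34 ± 0.35 with a limma adjusted p of 0.607. Papss2, which makes the sulfate donor, stood 0.39 ± 0.15 higher, with quercetin values of 10.06 to 10.20 against control values of 9.41 to 10.14. Tpmt, a thiopurine methyltransferase, measured 9.04, 8.64 and 8.64 against 9.36, 9.18 and 9.34, a difference of 0.52 ± 0.20 with separate groups. Ugt3a1, a UDP-glycosyltransferase, lay on the other side at -0.52 ± 0.16, with separate groups. Sult1a1, the phenol sulfotransferase best known for acting on flavonols, differed by 0.24 ± 0.15 with overlap, low in control pool 3 only.

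Among 18 drug and bile transporters, 7 lay above 0 and the median was -0.04. Abcc2, the canalicular pump for conjugates, measured 7.18, 6.67 and 7.14 on the control diet and 6.68, 6.21 and 6.70 with quercetin, a difference of -0.47 ± 0.19. Quercetin pools 1 and 3 lay just above control pool 2 and below both other control pools. Abcg2, the breast cancer resistance protein, which exports flavonol conjugates, was level at -0.06 ± 0.11. Of 20 glutathione S-transferases, 14 lay above 0 with a median of 0.14, and 2 were higher and 1 lower at an unadjusted p below 0.05. The median was 0.07 without control pool 2 and 0.26 without control pool 1. Gsta2 measured 7.95, 7.90 and 7.75 against 8.19, 8.28 and 8.30, a difference of 0.39 ± 0.12 with separate groups. Gstt3 measured 8.88, 7.79 and 7.46 against 8.74, 8.75 and 8.76. Its 3 quercetin pools were almost equal and control pool 1 lay above all of them, and without control pool 1 its difference was 1.13 with a limma adjusted p of 0.0138. Asns, asparagine synthetase, showed the same layout, with 9.05, 7.81 and 7.88 against 8.84, 8.76 and 8.77.

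Among bile acid and sterol genes, Cyp7a1, read by its brightest probe set, and the cholesterol synthesis list differed more between control pools than between diets. Cyp7a1, which sets the pace of bile acid synthesis from cholesterol, measured 11.83, 11.28 and 10.46 on the control diet and 11.73, 11.64 and 11.56 with quercetin. The quercetin pools fell inside the control range, and the difference was 0.45 ± 0.27. A second, dimmer Cyp7a1 probe set gave 0.56 ± 0.21 with overlap, at a limma unadjusted p of 0.0185. Of 21 genes of bile acid synthesis and its repression, 12 lay above 0 with a median of 0.03, which quantile normalization turned to -0.01. Acox2, the peroxisomal oxidase that shortens the side chain, measured 10.64, 10.29 and 10.53 against 10.99, 10.73 and 10.90, a difference of 0.39 ± 0.13. Amacr, the racemase of the same pathway, lay on the other side at -0.68 ± 0.25, and Akr1c14, a hydroxysteroid dehydrogenase, at -0.48 ± 0.17. Acox2 and Akr1c14 had separate groups, and Amacr overlapped.

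For 21 genes of cholesterol synthesis, 15 lay above 0 and the median was 0.10, but none reached an unadjusted p below 0.05 in either direction. Dhcr7, which makes cholesterol in the last step, measured 8.63, 7.75 and 7.24 against 8.17, 8.40 and 8.01. As over the whole list, whose mean was 0.30 above the 6-array mean in control pool 1 and 0.39 below it in control pool 3, the controls spanned the quercetin values. The list median was -0.10 without control pool 3. Scarb1, the HDL receptor, measured 9.88, 9.34 and 9.48 against 9.94, 10.14 and 9.76, a difference of 0.38 ± 0.13. Of the 21 lipoprotein genes with Scarb1 among them, 15 lay above 0 with a median of 0.05.

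In fatty acid metabolism the members went both ways. Of 33 genes of PPARA targets and fatty acid oxidation, 13 lay above 0 with a median of -0.04, and 2 were higher and 3 lower at an unadjusted p below 0.05. Beside Fabp1, the lower members included Vnn1, a pantetheinase that PPARA controls, at -0.50 ± 0.18 with overlap. The higher members were Acot2, a mitochondrial thioesterase, and Etfdh, which feeds electrons from fatty acid oxidation into the respiratory chain. Acot2 measured 5.27, 5.33 and 5.47 on the control diet and 5.78, 5.78 and 5.68 with quercetin, a difference of 0.39 ± 0.12, and Etfdh differed by 0.24 ± 0.10. Both had separate groups. Of 25 fatty acid synthesis genes, 10 lay above 0 with a median of -0.09, including Dgat1, an acyltransferase of triglyceride synthesis, at 0.34 ± 0.12, and Elovl2, an elongase of polyunsaturated fatty acids, at -0.34 ± 0.14. Of 24 genes of lipid droplets and fatty acid uptake, 15 lay above 0 with a median of 0.10. Plin4 and Plin5, both droplet coat proteins, had separate groups in opposite directions, -0.41 ± 0.14 and 0.42 ± 0.22. The droplet list had a median of -0.01 without control pool 3.

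Genes of amino acid breakdown lay mostly above 0. Of 31 measured, 27 had a difference above 0, the median was 0.13 log2 units, 5 were higher and none lower at an unadjusted p below 0.05, and 8 had all quercetin pools above all control pools. Over all genes, 48.3% lay above 0, 3.36% were higher and 3.49% lower at that p, and 6.83% had all quercetin pools above. Prodh, proline dehydrogenase, measured 9.51, 9.60 and 9.06 on the control diet and 9.70, 9.85 and 9.86 with quercetin, a difference of 0.42 ± 0.12. Hgd, of tyrosine breakdown, differed by 0.25 ± 0.10, Gpt, alanine aminotransferase, by 0.25 ± 0.10 and Mccc1, of leucine breakdown, by 0.23 ± 0.09. All 4 had separate groups. Of 14 genes of the methionine cycle and transsulfuration, 13 lay above 0 with a median of 0.15. Cth, which releases cysteine from cystathionine, measured 11.37, 10.79 and 10.66 against 11.25, 11.52 and 11.42, a difference of 0.45 ± 0.15, with control pool 1 inside the quercetin range. Mat1a, the liver enzyme that makes S-adenosylmethionine, differed by 0.25 ± 0.10 and Bhmt2, a homocysteine methyltransferase, by 0.29 ± 0.12, both with overlap. Of 9 urea cycle genes, 5 lay above 0 with a median of 0.07, and Arg1, arginase, had separate groups with a difference of 0.25 ± 0.10. The amino acid and methionine medians ran from 0.11 to 0.17 and from 0.12 to 0.20 when each pool was left out in turn, while the urea cycle median was 0.002 without control pool 3.

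Mitochondrial genes were taken as 3 lists, and most members of the first 2 lay above 0. Of 71 genes of oxidative phosphorylation, 54 lay above 0, 16 had all quercetin pools above all control pools and 1 had all below, and 4 were higher and none lower at an unadjusted p below 0.05. Over all genes, 6.83% had all quercetin pools above and 7.62% all below, and 3.36% were higher and 3.49% lower at that p. The median was 0.06 log2 units, and it was 0.01 after quantile normalization. The 4 lowest p values belonged to complex I subunits. Ndufab1 measured 9.29, 9.24 and 9.21 on the control diet and 9.44, 9.52 and 9.67 with quercetin, a difference of 0.30 ± 0.09. Ndufs1 differed by 0.30 ± 0.09, Ndufa5 by 0.26 ± 0.09 and Ndufa8 by 0.23 ± 0.09, all with separate groups. Of 25 genes of mitochondrial gene expression, Tefm among them, 21 lay above 0 with a median of 0.12. Mrps2, a ribosomal protein, and Sco2, a copper chaperone for cytochrome oxidase, stood 0.36 ± 0.14 and 0.26 ± 0.10 higher with separate groups. Of 26 mitochondrial carriers, 14 lay above 0 with a median of 0.04, and 4 of them, Slc25a25 included, are named here for their low p. Slc25a47, a carrier found mainly in liver, measured 11.67, 11.80 and 11.66 against 11.98, 11.87 and 12.18. Slc25a23, another calcium-regulated ATP-magnesium carrier, measured 8.81, 8.60 and 8.57 against 8.18, 8.16 and 8.51. Slc25a47 and Slc25a45 lay higher by 0.30 ± 0.11 and 0.22 ± 0.10, and Slc25a23 lay on the side of Slc25a25 at -0.38 ± 0.14.

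**Figure D2:**
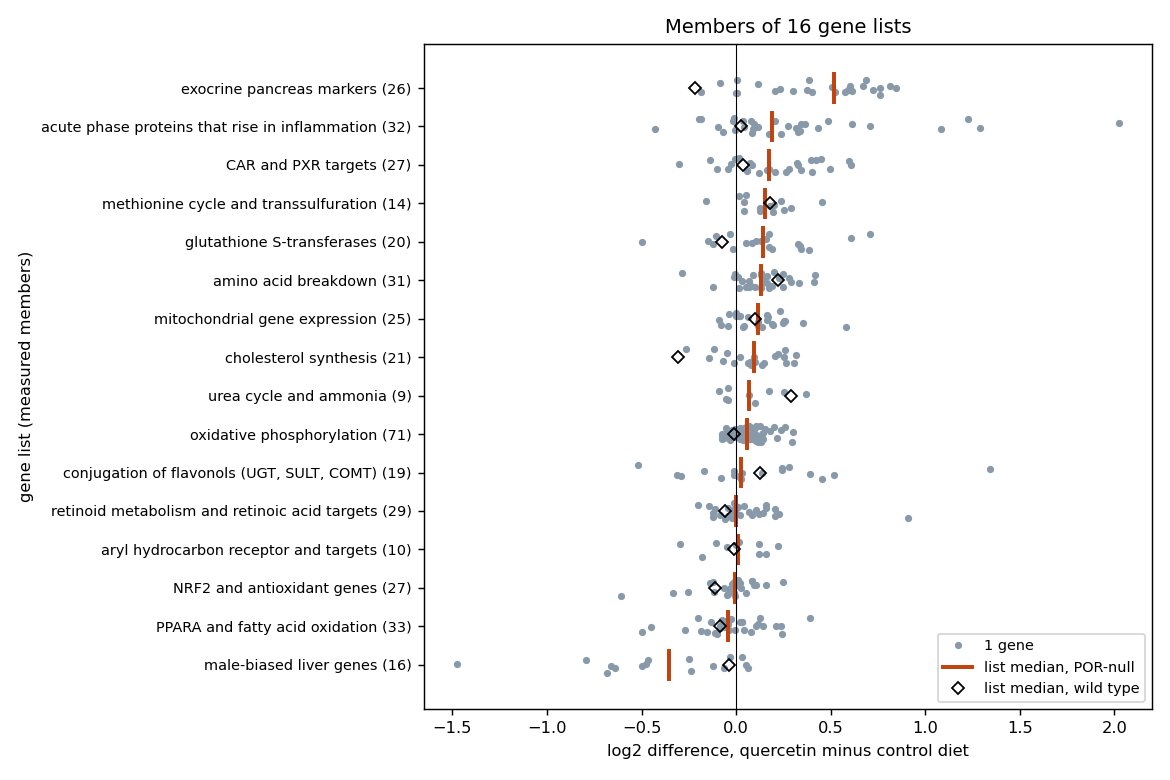
Log2 difference between quercetin and control diet in POR-null liver for every measured member of 16 gene lists (grey points, 1 per gene), with the list's median in POR-null liver (vertical bar) and in wild-type liver (open diamond). The amino acid list has 27 of 31 members above 0, and the male-biased list has 3 of 16.

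Several of the largest differences came from genes that varied widely among pools of 1 diet. Of 32 acute phase proteins that rise in inflammation, 24 lay above 0 with a median of 0.19, and 4 were higher and none lower at an unadjusted p below 0.05. Saa2, serum amyloid A2, measured 8.03, 8.11 and 9.08 on the control diet and 12.21, 11.26 and 7.82 with quercetin. Saa1, its close relative, measured 9.60, 9.58 and 10.61 against 12.45, 11.88 and 9.15. Quercetin pools 1 and 2 lay above every control for both genes and quercetin pool 3 lay below every control. The differences were 2.03 ± 0.74 and 1.23 ± 0.65 log2 units, with limma adjusted p values of 0.651 and 0.750. Without quercetin pool 3, Saa2 differed by 3.33 with a limma adjusted p of 0.00334, the only probe set to pass in that setting.

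Lcn2, lipocalin 2, an iron-siderophore binding protein, measured 7.69, 7.74 and 8.75 against 10.95, 9.21 and 7.91. Orm2, an orosomucoid, measured 6.77, 6.22 and 5.87 against 9.05, 6.81 and 6.26. Both were highest in quercetin pool 1 and had overlapping groups, with differences of 1.29 ± 0.51 and 1.09 ± 0.49. Over the list, quercetin pool 1 stood 0.63 log2 units above the 6-array mean, the other quercetin pools stood at 0.04 and -0.20, and the controls ran from -0.25 to 0.02. Without quercetin pool 1 the list median was 0.001. S100a8, a neutrophil calcium-binding protein that also counts as acute phase, measured 5.39 in quercetin pool 1 and 4.56 to 4.81 in the other 5 pools. The 12 neutrophil markers, which include Lcn2 and S100a8, had 5 above 0 and a median of -0.05, and the part of neutrophils in these values was not tested.

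The 250 bases before the starts of Saa1, Saa2 and Lcn2 are shown because these genes were highest in the same pool. Capitals mark TTGCNNAA, the core letters of many sites for C/EBP factors, which drive acute phase genes. RefSeq (GRCm38.p6) places Saa1 at chr7:46742981-46743230 on the minus strand, Saa2 at chr7:46751583-46751832 on the plus strand and Lcn2 at chr2:32387740-32387989 on the minus strand.
Saa1: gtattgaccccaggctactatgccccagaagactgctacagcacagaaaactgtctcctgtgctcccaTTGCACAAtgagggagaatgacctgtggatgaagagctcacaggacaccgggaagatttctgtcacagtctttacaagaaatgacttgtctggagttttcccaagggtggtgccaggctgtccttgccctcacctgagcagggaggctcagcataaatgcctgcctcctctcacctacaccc
Saa2: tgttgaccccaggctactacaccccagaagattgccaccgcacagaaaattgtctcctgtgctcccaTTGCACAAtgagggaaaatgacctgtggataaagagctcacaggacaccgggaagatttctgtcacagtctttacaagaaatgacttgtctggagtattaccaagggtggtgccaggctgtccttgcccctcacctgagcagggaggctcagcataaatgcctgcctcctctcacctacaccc
Lcn2: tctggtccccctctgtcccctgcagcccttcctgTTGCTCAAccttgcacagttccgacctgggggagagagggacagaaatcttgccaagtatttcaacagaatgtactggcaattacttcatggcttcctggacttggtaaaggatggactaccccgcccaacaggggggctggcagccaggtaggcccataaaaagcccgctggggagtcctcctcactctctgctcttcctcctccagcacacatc
The motif was found on either strand in 3142 of 32851 such windows (9.56%), so its presence in all 3 is not rare. The Saa1 and Saa2 windows were 94.8% identical over their alignment. These windows lie before the start, and no probe sequences were compared. Whether probes are shared between Saa1 and Saa2 was therefore not tested, and their separate levels are uncertain.

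Other inflammatory lists stayed near 0, except that interferon response genes lay mostly below 0. Negative acute phase proteins had a median of 0.004 over 14 genes with 8 above 0, which quantile normalization moved to -0.05. Interleukin 6 and STAT3 genes had a median of 0.009 over 19 genes with 10 above 0, and turned to -0.006 with quantile normalization. Complement and coagulation genes had a median of -0.01 over 31 genes with 14 above 0, which centring the arrays turned to 0.01. Mbl2, mannose-binding lectin, measured 9.71, 10.11 and 10.16 against 9.08, 9.37 and 9.62, and C6, of the membrane attack complex, measured 9.17, 9.08 and 9.26 against 8.69, 8.95 and 8.85. Both had separate groups, with differences of -0.64 ± 0.24 and -0.34 ± 0.11. Of 28 interferon response genes, 8 lay above 0 with a median of -0.08, and 1 was higher and 3 lower at an unadjusted p below 0.05. Leaving out control pool 1 gave a median of -0.0065. Relative to the 6-array mean, the list stood at 0.18, -0.11 and 0.03 in the control pools. The quercetin pools, at -0.10, 0.04 and -0.04, lay inside that range. Oasl1 and Gbp2, both induced by interferons, lay lower by -0.40 ± 0.13 and -0.36 ± 0.12 with separate groups, beside Ifngr2. A second, dimmer Gbp2 probe set gave 0.01. Rsad2, the antiviral protein viperin, lay on the higher side at 0.31 ± 0.12 with overlap.

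Genes that are higher in male than in female liver lay mostly below 0. Of 16 measured, 3 had a difference above 0, the median was -0.36 log2 units, and 4 were lower and none higher at an unadjusted p below 0.05. Hsd3b5, a steroid reductase of male liver, measured 5.18, 7.63 and 9.07 on the control diet and 5.05, 5.16 and 7.25 with quercetin. Control pool 1 was as low as quercetin pools 1 and 2, so the difference of -1.47 ± 0.75, the largest on the lower side among named genes, came with overlapping groups. Slco1a1, an organic anion uptake carrier, measured 8.98, 9.03 and 9.72 against 7.58, 8.62 and 9.13, a difference of -0.80 ± 0.28. Gstp1, a glutathione S-transferase of male liver, measured 12.58, 12.84 and 13.08 against 11.97, 12.39 and 12.65. Its difference was -0.50 ± 0.15 and its groups overlapped by 1 pool. Keg1, a glycine acyltransferase-like protein, was the only member whose groups were separate, at -0.68 ± 0.26. Nudt7, which cleaves coenzyme A in peroxisomes, differed by -0.64 ± 0.24 with overlap.

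Over the male-biased list, control pool 3 stood 0.53 log2 units above the 6-array mean and quercetin pool 1 stood 0.58 below it. The other 4 pools lay between -0.15 and 0.15, so the list varied within each diet by about as much as between them. The median ran from -0.53 to -0.20 when pools were left out in turn. Hsd17b6, a steroid dehydrogenase outside the list, measured 7.04, 8.74 and 8.92 against 7.23, 7.19 and 7.63, and without control pool 1 its difference was -1.48 with a limma adjusted p of 0.0138. Of 18 female-biased genes, 8 lay above 0 with a median of -0.01, and quantile normalization turned that median to 0.009. Their list mean stood at -0.25 in control pool 3 and 0.26 in quercetin pool 1, on the opposite side of the male-biased mean in both pools. Sult1e1, described above, was their highest member. Of 20 genes of growth hormone, STAT5 and IGF signalling, which sets the sex bias of liver, 7 lay above 0 with a median of -0.07. Socs2, its feedback inhibitor, differed by -0.58 ± 0.32 and Ghr, the hormone's receptor, by -0.23 ± 0.12, both with overlap.

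Markers of exocrine pancreas had the widest range of pool means of the 47 lists. Of 26 measured, 23 lay above 0 with a median of 0.52 log2 units, yet 1 (Spink1, a trypsin inhibitor) reached an unadjusted p below 0.05 and none had separate groups. Clps, colipase, measured 6.84, 7.31 and 8.24 on the control diet and 7.38, 7.75 and 9.56 with quercetin. Over the list, quercetin pool 3 stood 1.31 log2 units above the 6-array mean, quercetin pools 1 and 2 at -0.55 and -0.13, and the controls between -0.69 and 0.34. Without quercetin pool 3 the median was -0.11. Pancreas transcripts were highest in quercetin pool 3, the pool with the lowest Saa2, and its part in other values of that pool was not tested.

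**Figure D3:**
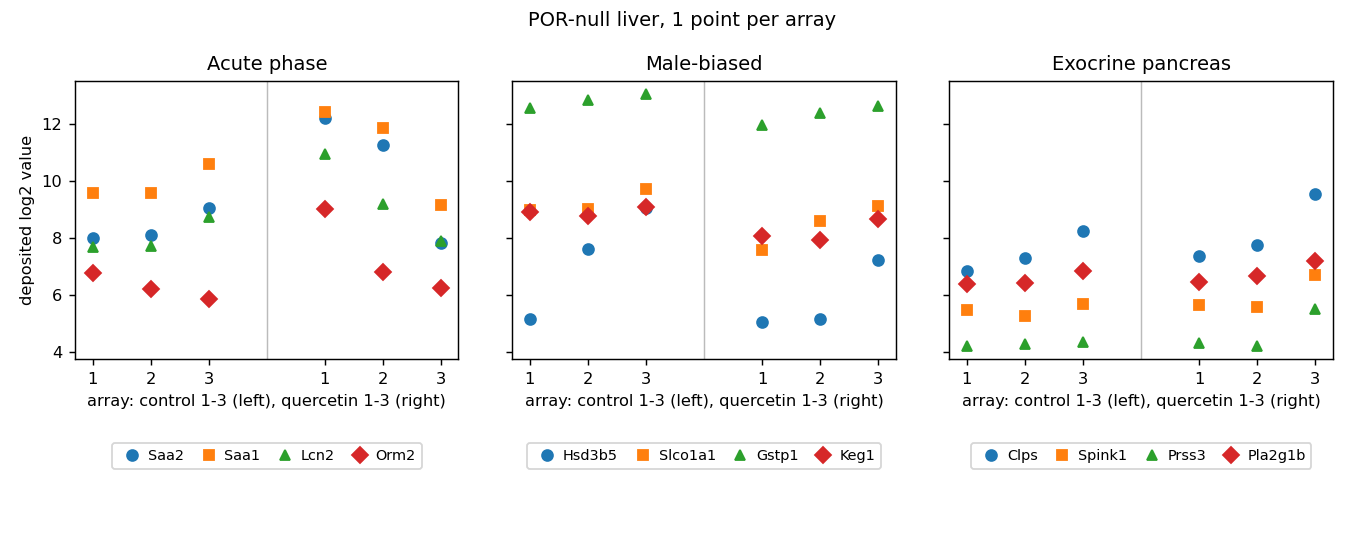
Deposited log2 values of 4 acute phase, 4 male-biased and 4 exocrine pancreas genes in each POR-null array (1 point per array, control pools left and quercetin pools right of each grey line). Saa2 spans 7.82 to 12.21 within the quercetin group, and Hsd3b5 spans 5.18 to 9.07 within the control group.

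Markers of other cell types had medians near 0. Medians were 0.10 for 21 macrophage and Kupffer cell markers (13 above 0), -0.05 for 18 lymphocyte markers (7 above 0), -0.02 for 20 stellate cell and matrix markers (7 above 0), -0.05 for 16 endothelial markers (5 above 0) and -0.03 for 11 cholangiocyte markers (5 above 0). They were -0.02 for 8 erythroid markers (4 above 0), -0.05 for 12 intestinal epithelium markers (6 above 0) and 0.09 for 10 adipose markers (7 above 0). The sign turned with the dimmest probe sets left out for the cholangiocyte (0.02) and erythroid (0.03) lists. Cd163, a scavenger receptor of Kupffer cells, measured 4.45, 4.54 and 4.07 on the control diet and 4.72, 4.53 and 4.97 with quercetin, with overlap between pools. Tff3, a trefoil peptide of goblet cells that is also made in bile ducts and liver, measured 7.10, 7.18 and 6.85 against 7.57, 7.52 and 7.31, a difference of 0.42 ± 0.13 with separate groups. Epcam, of bile duct epithelium, lay on the other side at -0.32 ± 0.10.

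**Figure D4:**
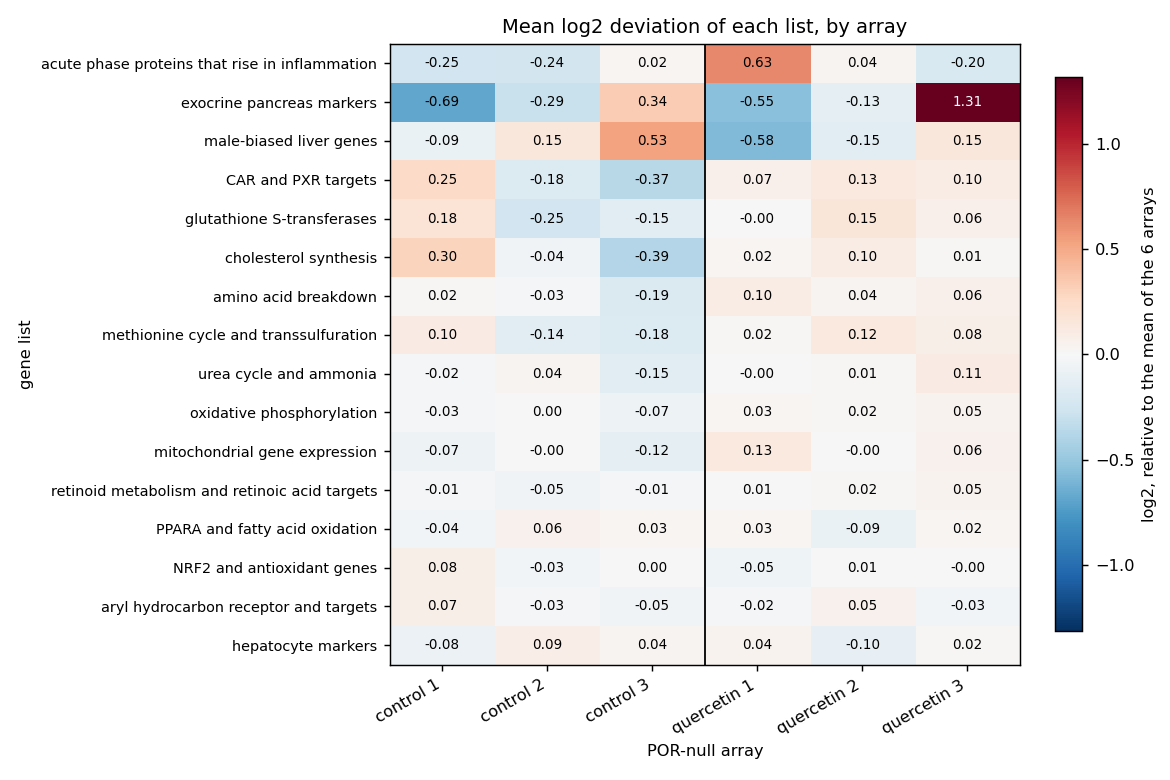
Mean log2 deviation of 16 gene lists in each POR-null array from the mean of the 6 arrays (red above, blue below, value printed in each cell). The acute phase list is highest in quercetin pool 1 at 0.63, the pancreas list in quercetin pool 3 at 1.31 and the male-biased list in control pool 3 at 0.53.

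Stress, timing and growth genes held few separate groups. Heat shock genes had a median of -0.08 over 20 genes (6 above 0), and endoplasmic reticulum stress genes a median of -0.09 over 26 genes (5 above 0), with Trib3, a pseudokinase of the amino acid response, at 0.31 ± 0.13 and Herpud1, of protein disposal, at -0.27 ± 0.11. Without control pool 2 the heat shock median was 0.09. Immediate early genes had a median of -0.07 over 27 genes (11 above 0). Among them Myc, a growth regulator, measured 5.79, 5.86 and 5.37 against 6.31, 5.88 and 6.71, and Gadd45a, a stress-induced growth inhibitor, measured 4.71, 4.83 and 4.87 against 5.11, 5.18 and 5.05. Both had separate groups, with differences of 0.63 ± 0.23 and 0.31 ± 0.11, though quercetin pool 2 cleared control pool 2 by 0.02 log2 units for Myc. Junb and Fosb lay on the other side, at -0.55 ± 0.22 and -0.29 ± 0.10.

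Clock genes had a median of -0.006 over 21 genes (8 above 0), which centring turned to 0.01. Nr1d1, the repressor REV-ERB alpha, measured 7.53, 7.29 and 7.56 on the control diet and 7.82, 8.04 and 7.68 with quercetin, a difference of 0.39 ± 0.13, while Rora, the activator at the same DNA elements, differed by -0.32 ± 0.14. Both had separate groups, but a second Rora probe set gave -0.0033 with overlap. Glucocorticoid and fasting genes had a median of 0.01 over 23 genes (13 above 0), which quantile normalization turned to -0.002, and Tsc22d3, the glucocorticoid-induced leucine zipper, differed by -0.39 ± 0.17 with overlap. Glucose and glycogen genes had a median of -0.02 over 29 genes (14 above 0). Ppp1r3c, a glycogen-targeting subunit of protein phosphatase, measured 6.56, 6.05 and 7.60 against 5.63, 6.09 and 5.97, with overlap and a difference of -0.84 ± 0.43. Cell cycle genes had a median of -0.08 over 30 genes (9 above 0), with Top2a at 0.60 ± 0.20 and Mcm3 at -0.27 ± 0.10. A second Top2a probe set gave 0.01, and the other Mcm3 probe sets lay between -0.05 and 0.06. Heme and iron genes had a median of 0.07 over 29 genes (19 above 0), led by Hebp1, a heme-binding protein, which measured 9.70, 9.49 and 9.58 against 10.11, 10.03 and 9.88. Pericentral and WNT target genes had a median of 0.06 over 19 genes (13 above 0).

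The wild-type arrays asked whether the response depended on genotype. For the difference between the POR-null and the wild-type response, 0 of 22626 probe sets (0%) had a limma adjusted p below 0.05, and 1397 (6.17%) had an unadjusted p below 0.05. Cyp26a1 differed by -0.14 ± 0.18 in wild type against 0.91 ± 0.18 in POR-null liver. The gap of 1.04 ± 0.25 had a limma adjusted p of 0.672. Gfra1 (0.49 in wild type), Nrep (-0.51) and Ido2 (0.38) had wild-type differences close to their POR-null values, and their gaps were 0.01, -0.10 and 0.05 log2 units.

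The lowest adjusted p of the gap, 0.255, belonged to the dim Pttg1 probe set. Among genes read by their brightest probe set and with a group mean above the median of all values, the 5 of lowest p on each side of the gap were taken. F11r, Deptor, Ola1, Cxadr and Grwd1 had a higher response in POR-null liver, by 0.71, 1.01, 0.64, 0.55 and 0.79 log2 units, and in each the wild-type difference lay below 0. Cxadr, like F11r, is a junction protein, and Deptor restrains the kinase mTOR. Lcat, which esterifies cholesterol on HDL, Sdc4, a heparan sulfate proteoglycan, Kmo, of the kynurenine pathway, Epb41l1 and Ercc8 had a lower response, by -0.57, -2.20, -0.79, -0.69 and -0.68. The limma adjusted p ran from 0.601 to 0.672 over these 10 genes. Lcat measured 10.71, 10.66 and 10.77 on the control diet and 10.52, 10.43 and 10.63 with quercetin in POR-null liver, with separate groups. Sdc4 measured 9.50, 9.33 and 9.54 against 8.76, 8.37 and 8.44, a POR-null difference of -0.93 ± 0.33, but its second probe set gave 0.51 ± 0.19. For Deptor, Ola1, Grwd1, Epb41l1 and Ercc8 at least 1 other probe set also lay on the opposite side of 0 in POR-null liver.

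**Figure D5:**
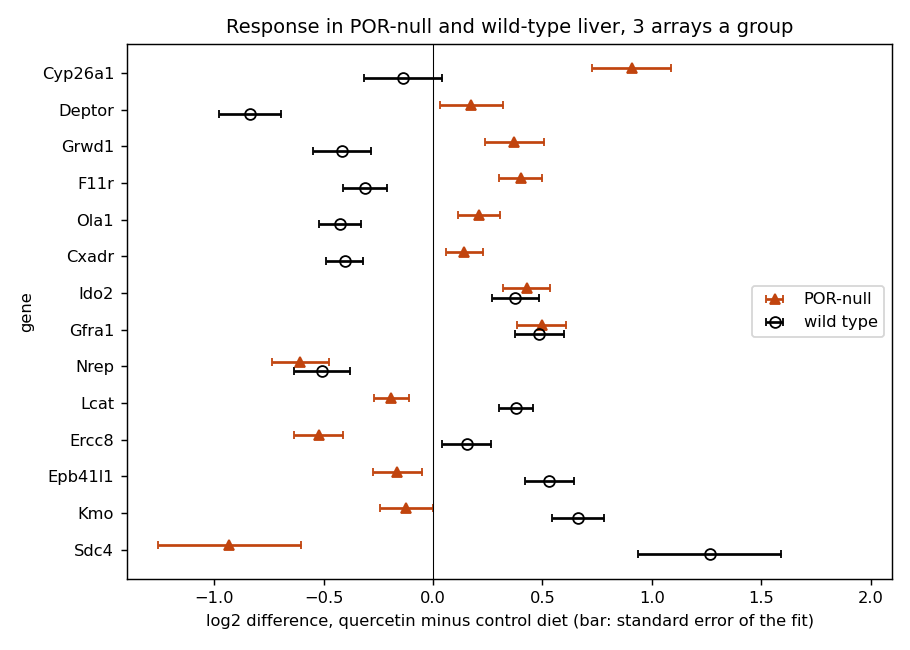
Log2 difference between quercetin and control diet with its standard error in POR-null (triangles) and wild-type (circles) liver, for the 5 genes on each side with the lowest p of the genotype gap (brightest probe set, group mean above the median of all values) and for Cyp26a1, Gfra1, Nrep and Ido2 (3 arrays a group). Of these, Sdc4 shows the widest gap, -2.20 log2 units, and Gfra1, Nrep and Ido2 nearly coincide in both genotypes.

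Several lists had medians of opposite sign in the 2 genotypes. Wild-type medians were -0.31 for cholesterol synthesis, -0.22 for pancreas markers, -0.07 for glutathione S-transferases and -0.01 for oxidative phosphorylation, against 0.10, 0.52, 0.14 and 0.06 in POR-null liver. Amino acid breakdown (0.22), the methionine cycle (0.18), the urea cycle (0.29) and mitochondrial gene expression (0.10) lay above 0 in wild type as well. The acute phase and male-biased medians were 0.03 and -0.04 in wild type. These differences between lists were not tested.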

How the data were processed

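The deposited log2 values of 12 Affymetrix 430A arrays were used as the authors gave them. MAS5 and RMA both appear in the submitters' processing notes, with neither a role nor a version, and the step that set the log2 scale is not given in the sources used. Any compression of folds or background shift by that step is carried into every value. The 64 spike-in and control probe sets were left out, and 22626 were tested without a filter. Probe sets with 1 symbol (20380) were named from the platform annotation, 691 with several symbols and 1555 with none were not named, and 20351 symbols matched the RefSeq gene table.

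All 12 arrays were fitted with limma 3.58.1 (R 4.3.3) with 1 mean per group and an intensity trend in the variance prior, and p values were adjusted by Benjamini-Hochberg over all probe sets. Wild-type arrays therefore share in the estimate of spread. SE and 95% intervals come from this fit, and the number of arrays limits the precision. The labels give pools of 3 mice, and the spread is that between pools. Same-numbered pools of the POR-null diets had correlated deviations of 0.10, -0.17 and 0.12, so the numbers were not taken to pair them. In data simulated from these means, with 200 changed probe sets in each of 5 runs, 45.6% of changes of 0.5 log2 units and 93.2% of changes of 1 log2 unit were recovered. On average 7.8 unchanged probe sets were called per run. The simulated noise was independent between probe sets, without pool effects shared by many genes, and the planted changes eased the adjusted threshold. In the measured data 11 probe sets differed by more than 1 log2 unit and none passed, so these shares do not give the recovery here.

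Named genes, by rule, comprised the 12 lowest p in each direction with separate groups and the 6 largest differences in each direction. The 5 lowest p in each direction of the genotype gap were also taken. All of these were required to have their higher group mean above the median over all values. A fixed set of quercetin, P450 and antioxidant genes and up to 4 lowest-p members of each list were added with no such condition. Nqo1, of the fixed set, had group means of 5.43 and 5.59, below that median of 5.957. List members that also lay below it in both groups included Acot2, Gadd45a, Fosb, Gbp2, Top2a, Cd163, S100a8 and Prss3. Pttg1, Gstm3, Btn1a1 and Cd2ap were named after their values were seen. The 47 lists (1039 of 1191 entries measured) and the rules were chosen with earlier results of these data known. Alternatives covered a filter on dim probe sets, quantile normalization, centring, the variance prior, array weights, a replicate block, the POR-null arrays alone, the probe set choice and leaving out each array. Promoter windows were read from RefSeq GRCm38.p6.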

Additional observations from a re-analysis of the deposited data

Results flagged for a closer look

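For 3 gene lists, the mean over members lay on opposite sides of 0 in the 2 genotypes. Every POR-null quercetin pool stood above its control mean and every wild-type quercetin pool below it, and the difference was not tested. For genes of retinoid metabolism and retinoic acid targets the mean difference was 0.0497 log2 units in POR-null liver, with pools at 0.03, 0.04 and 0.07, and -0.04 in wild type. Cyp26a1, with a POR-null difference of 0.91, is among these 29 genes and raised their mean. Their POR-null median was 0.002, with 15 above 0. For glutathione S-transferases the mean difference was 0.14 in POR-null liver, with pools at 0.07, 0.23 and 0.13, and -0.07 in wild type. For cholesterol synthesis it was 0.0897 in POR-null liver, with pools at 0.07, 0.15 and 0.06, and -0.36 in wild type, with pools at -0.76, -0.01 and -0.30. Control pool 1 stood above all 3 POR-null quercetin pools for the last 2 lists, at 0.18 for glutathione S-transferases and 0.30 for cholesterol synthesis relative to the 6-array mean. Control pool 3 was the lowest pool for cholesterol synthesis.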

How the results depend on the processing

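With no array of the comparison left out, no alternative brought a probe set past the limma adjusted p threshold for the diet difference or for the genotype gap. Leaving out 1 array gave 0 to 4 passing probe sets for the diet difference. There were 4 without control pool 1 (Gstt3, Gstm3, Asns and, on the lower side, Hsd17b6), 3 without control pool 3 (Btn1a1, Cd2ap and 1 unnamed), and 1 without quercetin pool 3 (Saa2). For the genotype gap the range was 0 to 1, and the 1 was Sdc4 without wild-type control pool 1 (-2.73, adjusted p 0.00205). The cause was not tested. The 1581 unadjusted calls ran from 1081 to 1811 when an array was left out, and were 942 with the 40% dimmest probe sets left out and 865 with 1 probe set per gene, where fewer features were tested. Centring the arrays kept the count at 1596 but split it 1004 higher and 592 lower, against 798 and 783, so the balance of directions depends on centring. A replicate block by pool number gave 0 calls and 1558 unadjusted ones. Cyp3a11 turned to 0.0143 with centring. With an array left out, the differences ran from -0.0852 to 0.0253 for Cyp1a1, -0.0623 to 0.336 for Cyp1a2, -0.0487 to 0.0418 for Cyp3a11, -0.0002 to 0.69 for Dhcr7 and -0.0325 to 0.623 for Prss3. In the simulated data, whose noise lacked shared pool effects, 45.6% of changes of 0.5 log2 units were recovered. That share does not give the recovery in the measured data, which was not determined.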
